A study of Mus musculus with 6 samples.

Results

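The nuclear genes for the subunits of the mitochondrial respiratory chain and ATP synthase were described in RNA from mouse c-Kit+ bone marrow cells. Their members were the protein-coding nuclear genes whose symbols begin with Ndufa, Ndufb, Ndufc, Ndufs, Ndufv, Uqcr or Atp5, or with Cox and a digit from 4 to 8, together with Sdha, Sdhb, Sdhc, Sdhd and Cyc1, without the Ndufaf assembly factors and Cox6a2. Of 20097 genes in the files, 81 matched, and all 81 passed the filter on low counts. They comprise 37 genes of complex I, 4 of complex II, 9 of complex III, 14 of complex IV and 17 of complex V. The same rule matches 86 genes in the GENCODE M21 annotation, and the other 5 (Cox7b2, Cox8b, Cox8c, Ndufa4l2 and a second gene named Atp5o) were not analysed here.

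The study compared bulk RNA of c-Kit+ bone marrow cells between 3 libraries labelled WT and 3 labelled Runx1 KO. Runx1 encodes a DNA-binding factor of blood cell development, and c-Kit is the stem cell factor receptor that marks blood stem and progenitor cells. The labels give the genotype and the cells, with no treatment, age or sex, and do not say how or in which cells Runx1 was disrupted, or whether the libraries came from separate animals, so the p-values measure the spread between these libraries. Poly-A RNA was sequenced, and the recovered totals were 23297526 to 26793380 reads per library.

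Complex I takes electrons from NADH and complex II from succinate. They pass through coenzyme Q, complex III and cytochrome c to oxygen at complex IV, and complex V makes ATP from the proton gradient that complexes I, III and IV build. Nearly all subunits are nuclear-encoded, while a few core subunits come from mitochondrial DNA. Several subunits of complex IV have alternative tissue forms. Adult blood stem cells are known for relying on glycolysis, with respiration rising as progenitors differentiate and divide.

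Proximal promoters are shown for members whose calls differ. Ndufb6 and Cox7a2 fell, Ndufab1 and Cox5a are the 2 members that rose, and Sdhd, of a complex in which no gene passed the test, carries 2 of the motifs searched. The stretches are from RefSeq (GRCm38.p6), 5′ to 3′ on the gene's strand, and run from 250 bases before the RefSeq start to the last base before the start or before the gene's first base in GENCODE M21. They are chr4:40279422-40279671 on the minus strand for Ndufb6, chr9:79759879-79760103 on the minus strand for Cox7a2, chr7:122101887-122102098 on the minus strand for Ndufab1, chr9:57520982-57521231 on the plus strand for Cox5a and chr9:50603850-50604099 on the minus strand for Sdhd. Capitals mark motif matches on either strand.
Ndufb6: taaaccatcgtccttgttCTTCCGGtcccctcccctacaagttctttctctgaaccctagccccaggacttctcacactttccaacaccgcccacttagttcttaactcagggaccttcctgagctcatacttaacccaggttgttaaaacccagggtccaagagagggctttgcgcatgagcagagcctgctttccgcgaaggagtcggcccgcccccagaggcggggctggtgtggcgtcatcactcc
Cox7a2: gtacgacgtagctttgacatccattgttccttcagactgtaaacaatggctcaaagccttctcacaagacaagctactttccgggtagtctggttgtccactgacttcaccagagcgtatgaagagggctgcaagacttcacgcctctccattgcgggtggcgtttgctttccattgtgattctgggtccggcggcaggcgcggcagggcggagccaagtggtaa
Ndufab1: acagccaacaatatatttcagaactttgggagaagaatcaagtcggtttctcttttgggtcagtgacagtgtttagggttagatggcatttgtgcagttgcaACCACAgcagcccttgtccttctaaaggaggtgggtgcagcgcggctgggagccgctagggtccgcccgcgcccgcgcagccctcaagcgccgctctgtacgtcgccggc
Cox5a: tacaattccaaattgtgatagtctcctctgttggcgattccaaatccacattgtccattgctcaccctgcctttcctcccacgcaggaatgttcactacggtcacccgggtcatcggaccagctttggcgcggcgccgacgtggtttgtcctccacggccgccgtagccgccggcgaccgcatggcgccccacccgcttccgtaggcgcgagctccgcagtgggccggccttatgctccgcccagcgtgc
Sdhd: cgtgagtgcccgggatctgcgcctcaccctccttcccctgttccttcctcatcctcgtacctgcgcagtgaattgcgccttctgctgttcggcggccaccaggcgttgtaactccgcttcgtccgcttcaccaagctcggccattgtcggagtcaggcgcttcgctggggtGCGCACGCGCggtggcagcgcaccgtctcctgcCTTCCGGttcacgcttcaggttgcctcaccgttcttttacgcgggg

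The motifs were GCGCA, any base and GCGC in a row for NRF1, CCGGAAG for ETS factors such as GABPA, AAGATGGC for YY1 and TGTGGT for RUNX factors, searched on both strands in the whole RefSeq window of 250 bases before to 50 bases after each start. They can overlap one another. RefSeq windows were matched for 67 of 81 members, 2 of them through a synonym, which gave 72 windows. The NRF1 letters stood in 25.0% of these windows against 4.60% of all 32851 windows, the ETS letters in 22.2% against 8.86%, and the YY1 letters in 13.9% against 2.75%. NRF1 and GABPA are known regulators of respiratory chain genes. The RUNX letters stood in 9.72% of the members' windows against 16.8% of all windows. Median GC content was 58.0% in the members' windows and 52.7% in all, and no match was weighed for base composition. Among the 10 members with a window that passed the expression test, none carried the NRF1 letters, 2 carried the ETS letters, 3 the YY1 letters and 1 the RUNX letters. That 1 is Ndufab1, with ACCACA, the reverse strand form, 148 bases before its start. In the stretches shown, Ndufb6 has the ETS letters 232 bases before the start, Sdhd has the NRF1 letters at 79 and the ETS letters at 46 bases before it, and the Cox5a and Cox7a2 stretches hold none of the motifs.

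The targeted gene was examined first. Runx1 (ENSMUSG00000022952) had 3031, 2799 and 3497 normalised reads in the WT libraries and 6648, 6720 and 5830 in the libraries labelled Runx1 KO. The latter were all higher, with a log2 change of 1.04 (SE 0.10, adjusted p = 0.00163), so Runx1 RNA level goes against a loss of the transcript in the libraries labelled Runx1 KO, and a gene total cannot show a lost exon. Kit was also higher in these libraries, by 0.60 on the log2 scale (adjusted p = 0.00346). Summed levels of stem, erythroid, neutrophil, mast cell and basophil, and B-lymphoid markers did not overlap between the groups. Those of T-lymphoid markers did, as did megakaryocyte markers (2872 to 3455 in WT, 3455 to 5573 in Runx1 KO). Monocyte and macrophage markers also overlapped (52776 to 72823 and 31381 to 54091). Point estimates ran against the summed change for 1 of 5 megakaryocyte, 2 of 10 erythroid and 1 of 6 mast cell and basophil markers. The summed level in the Runx1 KO libraries over that in WT was 1.53 for stem and multipotent markers (5 of 8 rose), 1.50 for megakaryocyte markers (3 of 5 rose), 0.613 for erythroid markers (6 of 10 fell), 0.524 for neutrophil markers (7 of 10 fell), 0.638 for monocyte and macrophage markers (2 of 6 fell), 0.382 for mast cell and basophil markers (5 of 6 fell) and 0.118 for B-lymphoid markers (5 of 7 fell). T-lymphoid markers had 0 of 6 past the threshold. Of the 15410 genes tested, 10.6% rose and 11.3% fell at the same threshold, an adjusted p of 0.05 in limma. For proliferation markers the ratio was 0.882 (3 of 7 fell, and all 7 point estimates were below 0), with 78277 to 89769 normalised reads in WT and 65220 to 77681 in Runx1 KO, which do not overlap. The part of these shifts in the results on respiratory chain genes was not tested, and in bulk RNA fewer cells of a type and less RNA per cell cannot be told apart.

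Most respiratory chain genes were slightly lower in the libraries labelled Runx1 KO, few passed the test, and 2 rose. Past an adjusted p of 0.05 in limma on log2 normalised reads, 11 of 81 members (13.6%) changed, where 21.9% of the 15410 genes tested did. Ndufb6, Ndufb7, Ndufb8 and Ndufv3 of complex I, Uqcr10 of complex III, Cox7a2 and Cox4i1 of complex IV, and Atp5j2 and Atp5f1 of complex V fell, and Cox5a and Ndufab1 rose. The 9 that fell are 11.1% of the members beside 11.3% of all genes, and the 2 that rose are 2.47% beside 10.6%. In this fit neither share was above that of all genes. A count model on the recovered reads (edgeR with TMM scaling) called the same 11 genes, with 21.2% of all genes called. The share that fell depended on the fit. DESeq2 called 18 members lower (22.2%, beside 13.8% of all genes) and 2 higher, a fit with the GC and length trend removed called 17 of 81 lower (beside 12.9% of all genes) and 1 higher, and limma on library totals called 2 lower (2.47%, beside 8.90%) and 3 higher.

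The point estimates leaned one way. They were lower for 66 of 81 members (81.5%), against 50.6% of all genes tested, and for 57 of the 70 members that did not pass the test. The median log2 change of the 81 was -0.15 against -0.004 for all genes. The changes were small, with 64 members (79.0%) under 0.25 in absolute log2 change, against 53.2% of all genes. Only Cox5a and Ndufb2 reached 0.5 in size, and the 95% interval lay within -1 and 1 for 79 members. The ranges of the groups did not overlap for 53 members (65.4%), against 43.3% of all genes. Of these, 48 were lower, where 21.9% of all genes had ranges apart and lower, and 5 were higher, against 21.4%. These summaries carry no test.

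**Figure D1:**
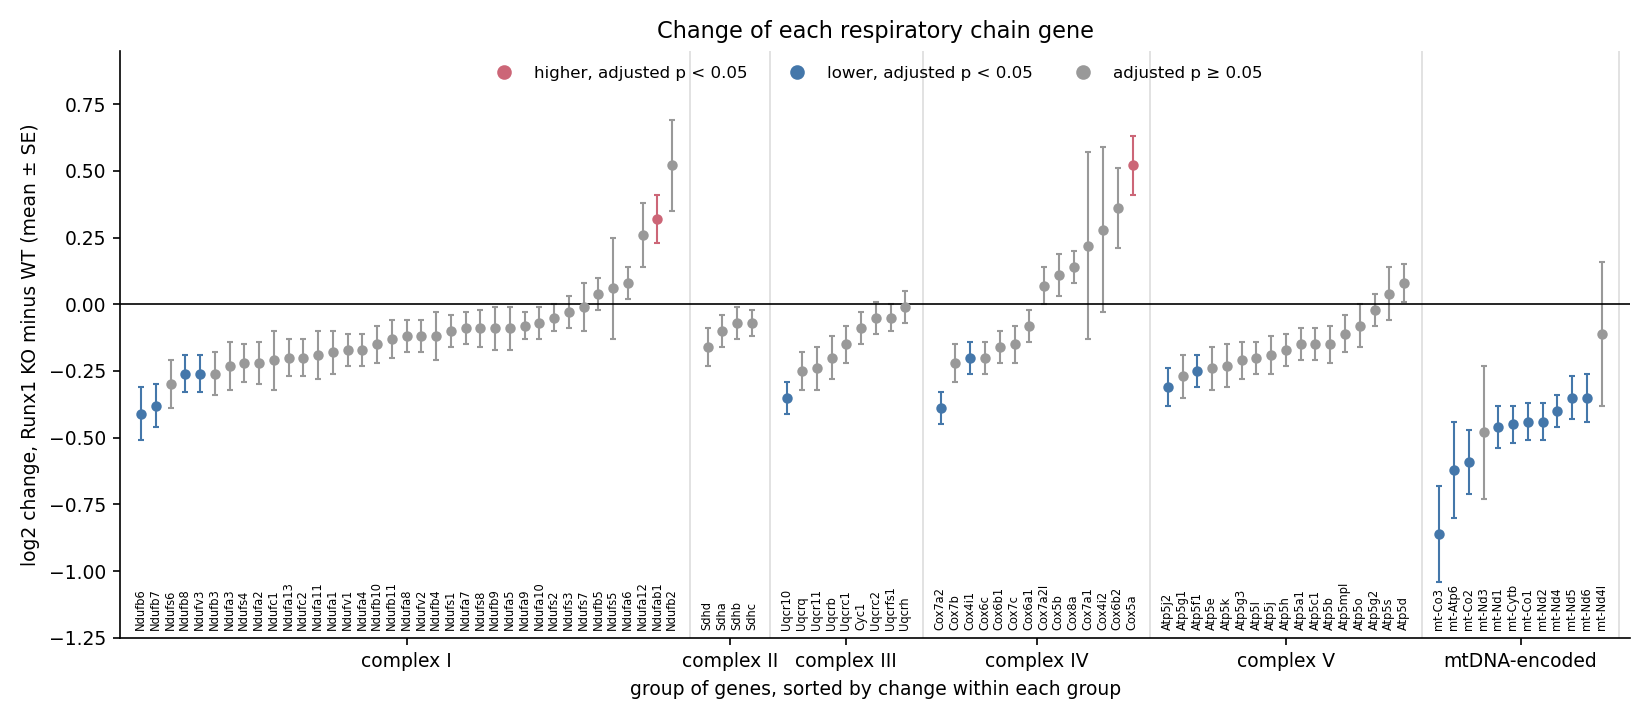
Log2 change (Runx1 KO minus WT, point, with its SE, bars) of each of the 81 members by complex and of the 12 mitochondrial DNA-encoded genes tested, coloured by the call at an adjusted p of 0.05. Most points lie a little under 0 in complexes I, II, III and V, complex IV has 7 on each side, and the mitochondrial DNA-encoded genes lie lower.

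Summed over the 81 members, WT libraries held 230939, 255886 and 237579 normalised reads and the libraries labelled Runx1 KO 225246, 218568 and 219350. The groups do not overlap, and the ratio of the means was 0.915. As shares of each library's reads the same genes made up 0.871%, 0.979% and 0.949% in WT and 0.924%, 0.885% and 0.903% in Runx1 KO, and these shares overlap. The size factors and the library totals thus give different pictures. With library totals as the scale, the median change over all genes moved from -0.004 to 0.078 and that of the members from -0.15 to -0.06. Members called lower were then 2, and 53 of 81 point estimates were still below 0.

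Library WT 2 had the highest normalised value of the WT libraries for 68 of 81 members (84.0%), against 35.1% of all genes tested, and the highest of all 6 libraries for 61. Without it, 3 members and 2140 genes were called. The members called numbered 1 without Runx1 KO 2 (1349 genes), 2 without Runx1 KO 3 (1743 genes) and 6 without WT 3 (2324 genes). They numbered 13 without WT 1 (2494 genes) and 15 without Runx1 KO 1 (3551 genes). Members called lower were 14.8% without WT 1 (8.12% of all genes) and 17.3% without Runx1 KO 1 (12.5%). The share was 2.47% without WT 2 (7.59%), 4.94% without WT 3 (7.46%), 1.23% without Runx1 KO 2 (4.69%) and 2.47% without Runx1 KO 3 (5.78%). WT 2 was also the highest library for the summed erythroid markers (32422 normalised reads, with 20573 and 19055 in the other WT libraries and 12581 to 17804 in Runx1 KO) and for proliferation markers (89769, with 65220 to 80715 elsewhere). Within Runx1 KO, library 1 was the highest for 54 members. Their part in the members' order was not tested.

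Complex I, the proton-pumping NADH dehydrogenase, had 31 of 37 point estimates below 0 and a median log2 change of -0.12. Ndufb6, Ndufb7, Ndufb8 and Ndufv3 fell and Ndufab1 rose. The 3 Ndufb proteins are accessory subunits of the membrane arm, and Ndufv3 is an accessory subunit of the module that oxidises NADH.

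Ndufb6 (ENSMUSG00000071014, chr4:40270591-40279421) had 538, 671 and 601 normalised reads in WT and 463, 449 and 449 in Runx1 KO. Every Runx1 KO library lay below every WT library, with a log2 change of -0.41 (SE 0.10, adjusted p = 0.031). Of its exonic bases, 39.0% overlap Smim27 on the other strand. Smim27 had at most 35.5 normalised reads in any library and did not pass the test, and whether reads were counted by strand is not given in the sources used here.

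Ndufb7 (ENSMUSG00000033938, chr8:83566671-83571626) had 2263, 2634 and 2610 normalised reads in WT and 2050, 1860 and 1856 in Runx1 KO, a log2 change of -0.38 (SE 0.08, adjusted p = 0.0189). Ndufb8 (ENSMUSG00000025204, chr19:44548572-44555440) had 1722, 1898 and 1707 in WT and 1539, 1467 and 1428 in Runx1 KO, a log2 change of -0.26 (SE 0.07, adjusted p = 0.0349). In both, the groups were apart and the closest Runx1 KO library was library 1. For Ndufb8, 19.7% of exonic bases are shared with a same-strand gene, Gm20538, so its count is uncertain. Ndufv3 (ENSMUSG00000024038, chr17:31520115-31531331) had 2225, 2489 and 2277 in WT and 2015, 1927 and 1888 in Runx1 KO, a log2 change of -0.26 (SE 0.07, adjusted p = 0.0319), again with no overlap. The falls of all 4 genes were not called without Runx1 KO 2, Runx1 KO 3, WT 2 or WT 3, nor that of Ndufb8 without WT 1, and none was called with library totals as the scale.

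Ndufab1 (ENSMUSG00000030869, chr7:122085403-122101886) encodes the mitochondrial acyl carrier protein, which is a subunit of complex I and also serves mitochondrial fatty acid synthesis. It had 508, 603 and 564 normalised reads in WT and 683, 676 and 737 in Runx1 KO. All Runx1 KO libraries were higher, with a log2 change of 0.32 (SE 0.09, adjusted p = 0.0456). It was the member just inside the threshold, and the call was lost whenever any 1 library was left out (highest adjusted p = 0.149). Other genes share 12.3% of the 50-base windows of its transcript, and Gm44986 overlaps 3.5% of its exonic bases on the other strand.

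Other complex I genes did not pass. Ndufs6, an accessory subunit, was just outside the threshold with 1099, 1331 and 1129 normalised reads in WT and 950, 968 and 967 in Runx1 KO (log2 change -0.30, adjusted p = 0.0502). The groups do not overlap there. Ndufb2, a membrane arm subunit, had the highest point estimate of complex I, at 109, 108 and 141 against 152, 190 and 170 (log2 change 0.52, SE 0.17, adjusted p = 0.0652). Per transcript length Ndufb2 had the fewest reads of all members in WT, and 3.32% of its exonic bases overlap other genes on the same strand. Ndufs6 and Ndufb2 were picked out after their values were seen. Ndufa4 is named for complex I and is now placed in complex IV. It had a log2 change of -0.17 (adjusted p = 0.0949), with 3189 to 3563 normalised reads in WT and 2900 to 3043 in Runx1 KO.

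Complex II is succinate dehydrogenase, shared with the tricarboxylic acid cycle and the one complex here with no mitochondrial DNA-encoded subunit. None of its 4 genes passed the limma test, and 1 of them had an unadjusted p under 0.05. The flavoprotein Sdha had 10990, 11962 and 10935 normalised reads in WT and 10161, 10706 and 10629 in Runx1 KO (log2 change -0.10, 95% interval -0.24 to 0.03, adjusted p = 0.241). The iron-sulfur subunit Sdhb had 2851, 2807 and 2986 against 2915, 2674 and 2666 (-0.07, interval -0.21 to 0.08, adjusted p = 0.461). Only Sdhb overlapped between the groups.

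The membrane anchor Sdhc had 2567, 2710 and 2661 normalised reads in WT and 2529, 2517 and 2531 in Runx1 KO (log2 change -0.07, interval -0.19 to 0.06, adjusted p = 0.386). The other anchor, Sdhd, had 4441, 5132 and 4564 against 4316, 4115 and 4176 (-0.16, interval -0.32 to 0.00, adjusted p = 0.131). The intervals exclude a change of 1 log2 unit in either direction. With library totals as the scale, the point estimates of Sdhb and Sdhc turned just above 0, to 0.02 in limma.

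Complex III, which passes electrons from coenzyme Q to cytochrome c, had all 9 point estimates below 0, from -0.35 to -0.01, and a median of -0.15. Uqcr10 fell. This small subunit (ENSMUSG00000059534, chr11:4701973-4704342) had 1549, 1687 and 1617 normalised reads in WT and 1309, 1246 and 1242 in Runx1 KO. The groups were apart, with means of 1618 ± 69.0 and 1266 ± 37.4 (SD, n = 3 each), and the log2 change was -0.35 (SE 0.06, adjusted p = 0.0103). The call was lost without Runx1 KO 2 (adjusted p = 0.0542) and held in the other fits. Uqcrq, another small subunit, was just outside the threshold (log2 change -0.25, adjusted p = 0.0513), with 1585, 1804 and 1660 against 1491, 1396 and 1362. It was picked out after its value was seen.

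Complex IV, cytochrome c oxidase, was the mixed complex, with 7 point estimates below 0, 7 above, a median of -0.01 and overlapping summed levels (31298 to 34049 normalised reads in WT, 30441 to 32206 in Runx1 KO). Cox7a2 and Cox4i1 fell and Cox5a rose. Cox4 and Cox5a proteins bind each other early in the assembly of the enzyme.

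Cox7a2 (ENSMUSG00000032330, chr9:79755361-79759878) encodes the widely expressed form of subunit 7a. It had 1938, 2053 and 1964 normalised reads in WT and 1517, 1544 and 1478 in Runx1 KO. The gap between the groups was far larger than the spread within them, at means of 1985 ± 60.5 and 1513 ± 33.3 (SD, n = 3 each), and the log2 change was -0.39 (SE 0.06, adjusted p = 0.00558). Of the 11 calls, it alone held in all 14 alternative fits on all libraries and all 6 fits that left out a library, with adjusted p at most 0.0292.

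Cox5a (ENSMUSG00000000088, chr9:57521274-57532426) had 782, 1031 and 954 normalised reads in WT and 1282, 1315 and 1359 in Runx1 KO. Every Runx1 KO library was higher than every WT library, and the log2 change of 0.52 (SE 0.11, adjusted p = 0.0166) was the largest rise called among the members. The call held in all 14 fits on all libraries and was lost without Runx1 KO 2 or Runx1 KO 3 (highest adjusted p = 0.0649). Gm26631 overlaps 41.7% of its exonic bases on the other strand, with 3.0 to 11.5 normalised reads in the libraries, and was not tested.

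Cox4i1 (ENSMUSG00000031818, chr8:120668222-120674207), the widely expressed form of subunit 4, had 4919, 5166 and 4926 normalised reads in WT and 4520, 4163 and 4374 in Runx1 KO. The groups do not overlap, and the log2 change was -0.20 (SE 0.06, adjusted p = 0.043). Emc8 overlaps 20.1% of its exonic bases on the other strand. The call was lost in 7 of 14 alternative fits on all libraries and in 5 of 6 that left out a library, all but the fit without Runx1 KO 1.

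**Figure D2:**
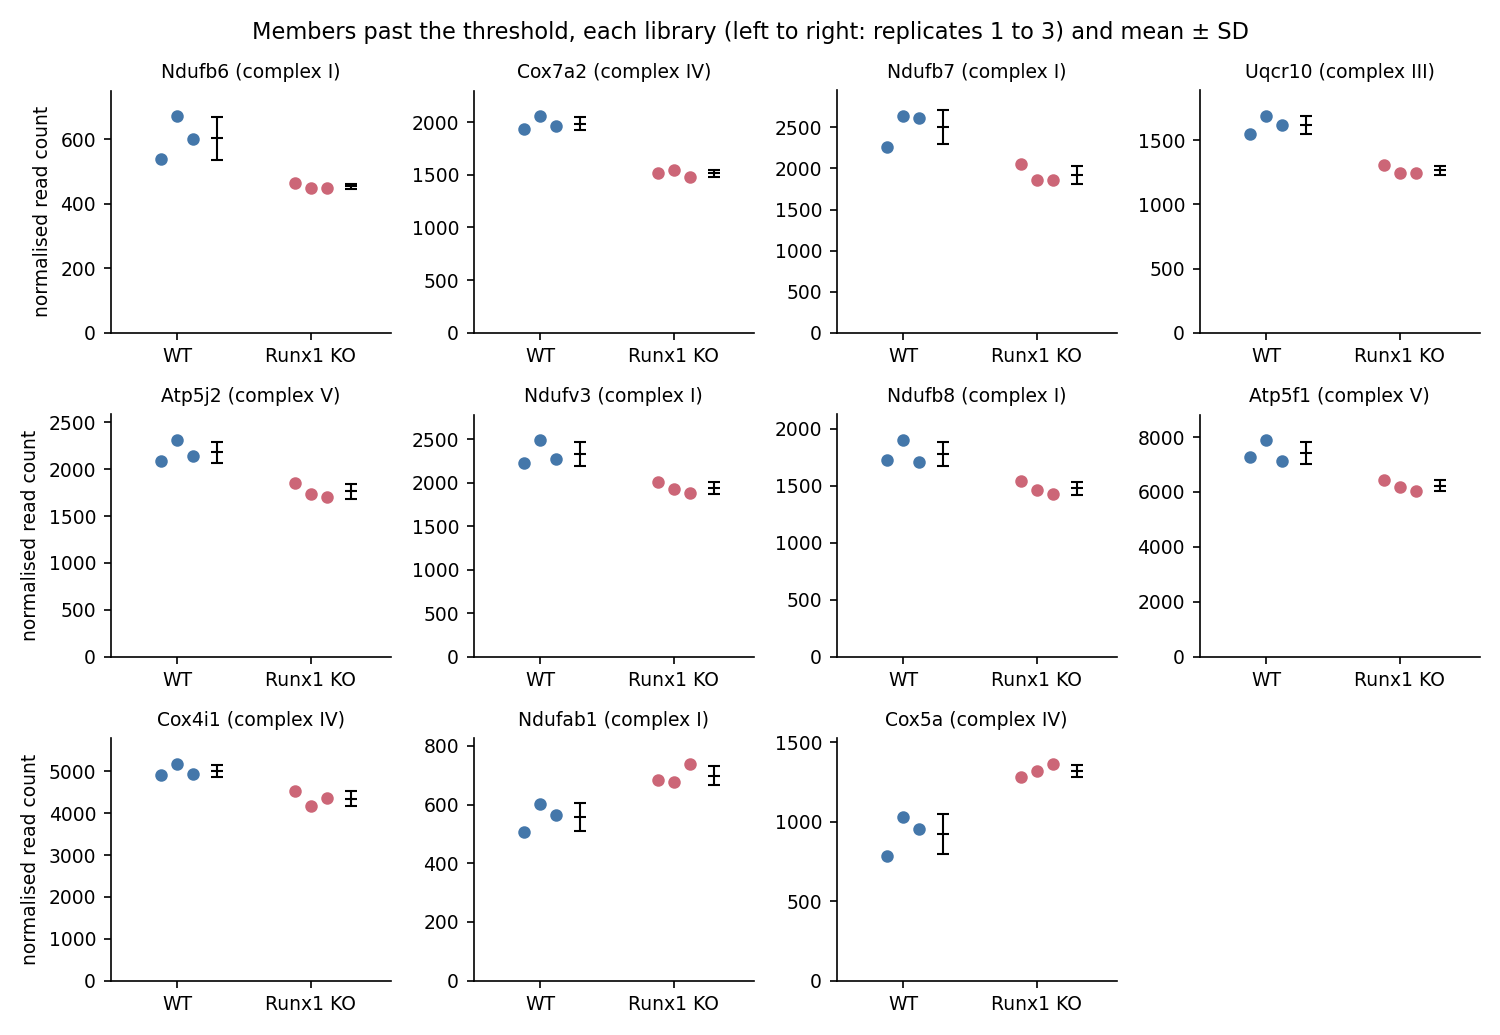
Normalised read counts (vertical axes from 0) of the 11 members past the threshold in each of the 3 WT and 3 Runx1 KO libraries, with the mean and SD (n = 3) beside each group. The groups do not overlap in any panel, Runx1 KO libraries are lower in 9 panels and higher for Ndufab1 and Cox5a, and WT 2 is the highest WT library in all 11.

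The alternative forms of complex IV subunits were compared per transcript length, as reads divided by transcript length and library total (RPKM). The heart and muscle form Cox7a1 and the lung form Cox4i2 were at low levels, at means of 1.09 and 1.97 RPKM in WT, while Cox7a2 and Cox4i1 were at 116 and 253. Cox7a1 had 8.1 to 14.8 normalised reads in WT and 8.9 to 15.9 in Runx1 KO (adjusted p = 0.682). Cox4i2 had 23.2 to 47.0 and 38.8 to 52.5 (adjusted p = 0.538). Neither passed the test, and both groups overlap. Of the 5 muscle and heart markers, 1 was listed, with 1 to 23 normalised reads.

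Cox6b2, known as the testis form of subunit 6b, was expressed in every library. It had 583, 637 and 482 normalised reads in WT and 677, 651 and 865 in Runx1 KO (log2 change 0.36, SE 0.15, adjusted p = 0.119), beside Cox6b1 at 3330, 3744 and 3562 against 3208, 3158 and 3114 (-0.16, adjusted p = 0.0943). Neither passed, and each was apart between the groups in opposite directions. Per length, Cox6b1 over Cox6b2 was 5.41 to 7.00 in WT and 3.41 to 4.59 in Runx1 KO. This ratio does not depend on library scaling, and it was not tested.

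Cox7a2l encodes a relative of subunit 7a that joins complexes III and IV into supercomplexes. Its normalised reads overlapped between the groups, at 4141 to 4496 and 4179 to 4887 (log2 change 0.07, adjusted p = 0.533). Relative to Cox7a2 its RPKM was 1.24 to 1.42 in WT and 1.66 to 1.97 in Runx1 KO. Cox5a over Cox5b, the other subunit numbered 5, was 0.419 to 0.465 in WT and 0.563 to 0.617 in Runx1 KO. Neither ratio was tested. Each holds a gene already called, Cox7a2 or Cox5a, and a partner that was not (Cox5b adjusted p = 0.388), so the ratios are no further result. Other genes share 19.8% of the 50-base windows of Cox7a2l and 25.9% of those of Cox5b. Among the other widely expressed forms, Cox6a1 had a log2 change of -0.08 (adjusted p = 0.357) and Cox8a of 0.14 (adjusted p = 0.155), the latter with 3023 to 3422 reads in WT and 3502 to 3627 in Runx1 KO. Cox6a2, left out of the members by the rule, had 68.1 to 91.0 normalised reads in WT and 7.9 to 40.8 in Runx1 KO. It fell in the same limma test (log2 change -2.18, SE 0.53, adjusted p = 0.0289).

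**Figure D3:**
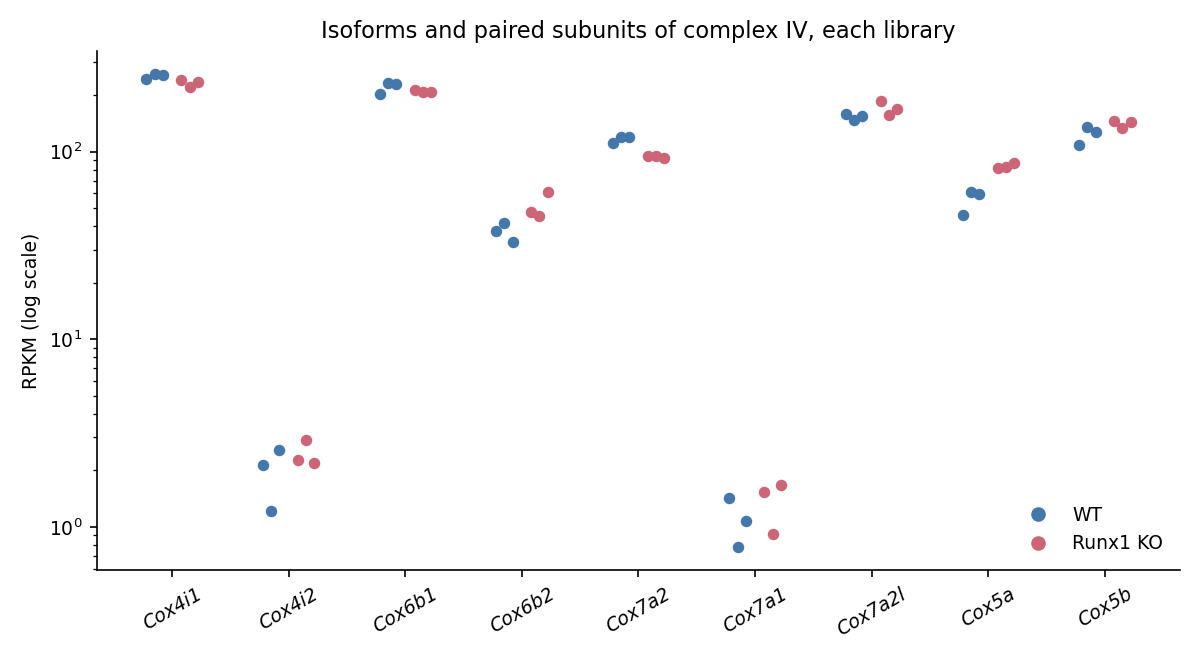
RPKM (log axis) of alternative forms and paired subunits of complex IV, 1 point per library, WT in blue and Runx1 KO in red. Cox7a1 and Cox4i2 lie near 1 to 3, Cox6b2 near 33 to 61, and Cox7a2 and Cox5a shift in opposite directions.

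Complex V, ATP synthase, had 15 of 17 point estimates below 0 and a median log2 change of -0.17. Its summed level was 89831 to 100741 normalised reads in WT and 83559 to 85632 in Runx1 KO, the lowest ratio of the 5 complexes at 0.896. Atp5j2 and Atp5f1 fell and none rose. Both encode subunits outside the catalytic head, subunit f of the membrane part and subunit b of the peripheral stalk.

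Atp5j2 (ENSMUSG00000038690, chr5:145183698-145192062) had 2091, 2306 and 2142 normalised reads in WT and 1854, 1731 and 1704 in Runx1 KO, a log2 change of -0.31 (SE 0.07, adjusted p = 0.0195). Atp5f1 (ENSMUSG00000000563, chr3:105942698-105960099) had 7260, 7878 and 7146 in WT and 6453, 6195 and 6053 in Runx1 KO, a log2 change of -0.25 (SE 0.06, adjusted p = 0.0269). For neither gene did the groups overlap. Other genes hold 23.2% of the 50-base windows of Atp5f1, and Gm42890 and Wdr77 overlap part of its exons on the other strand, so its count is uncertain. Both calls were lost with library totals as the scale and in the fits without Runx1 KO 2, Runx1 KO 3 or WT 2.

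Subunit c of the rotor ring is made from 3 genes that differ in their targeting peptides. Atp5g1 had 2995, 3636 and 3377 normalised reads in WT and 2683, 2776 and 2835 in Runx1 KO, just outside the threshold (log2 change -0.27, adjusted p = 0.053). Atp5g3 had 4000, 4679 and 4241 against 3748, 3754 and 3628 (-0.21, adjusted p = 0.0679). Atp5g2 overlapped between the groups (3048 to 3312 against 3053 to 3306, log2 change -0.02), and 87.4% of its 50-base windows also stand in other genes, so its count is uncertain. The inhibitor of ATP synthase, Atpif1, was at 1213 to 1480 and 1347 to 1428 (adjusted p = 0.618).

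The head subunits Atp5b and Atp5a1 had the highest levels per length of all members in WT, at 534 ± 41.8 and 379 ± 23.4 RPKM (SD, n = 3). Levels of 13 members with over 20% of their 50-base windows shared with other genes, among them Atp5l (68.5%), Cox7c (53.0%) and Atp5h (47.9%), depend on how shared reads were counted, which is not given in the sources used here. Another gene's exons overlap 24 members, on the same strand for 4. Atp5s, listed by its symbol, is a factor of ATP synthase and not a core subunit.

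The mitochondrial DNA-encoded partners of these subunits mostly fell. Of the 13 in the files 12 were tested, 10 fell (83.3%, beside 11.3% of all genes) and none rose, with a median log2 change of -0.45. Cytochrome c oxidase subunit mt-Co1 had 80051, 84616 and 75324 normalised reads in WT and 60779, 56514 and 59956 in Runx1 KO (log2 change -0.44, SE 0.07, adjusted p = 0.00829). Its groups do not overlap. Complex I subunit mt-Nd5 (-0.35, adjusted p = 0.0223) and complex III subunit mt-Cytb (-0.45, adjusted p = 0.00645) also fell. Their summed level was 273387, 299196 and 273065 in WT and 222047, 200488 and 209319 in Runx1 KO, a ratio of 0.747, where the nuclear members stood at 0.915. The difference between these ratios was not tested. The falls called numbered 5 without Runx1 KO 2 or Runx1 KO 3 and 6 without WT 2 or WT 3.

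The largest falls there were in mt-Co3 (-0.86, adjusted p = 0.0186) and mt-Atp6 (-0.62, adjusted p = 0.0473), which had 93.5 to 240 and 110 to 227 normalised reads, far fewer than mt-Co1. Of the others counted as falls, mt-Co2 also had few reads, at 187 to 326. How reads that also match nuclear copies of mitochondrial DNA were counted is not given in the sources used here.

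Few of the genes that build the complexes passed the test, beside the 10.6% of all genes called higher and the 11.3% called lower. Of 45 assembly factors tested, 1 rose (2.22%) and 3 fell (6.67%), with a median log2 change of 0.04. Cox18, which inserts a mitochondrial DNA-encoded subunit of complex IV into the membrane, rose by 0.76 (adjusted p = 0.00719), while the complex IV factors Cmc2 (-0.36, adjusted p = 0.0311) and Pet100 (-0.33, adjusted p = 0.0388) fell. Mitochondrial ribosomal proteins had 2 of 77 higher and 2 lower (2.60% each) with a median of -0.03. The rises were in Mrps34 (1.25, adjusted p = 0.00706) and Mrpl52 (0.63, adjusted p = 0.00906). Mrps34 was at a low level, with 53.5 to 72.9 normalised reads in WT and 125 to 173 in Runx1 KO. Among 15 regulators of mitochondrial gene expression Myc (0.63, adjusted p = 0.0159) and the mitochondrial RNA polymerase Polrmt (0.29) rose (13.3%), none fell, and the median was 0.16. Cytosolic ribosomal proteins had 3 of 81 higher (3.70%) and 1 lower (1.23%), with a median of 0.02.

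For the genes that feed the chain, the shares called stand beside the 10.6% of all genes called higher and the 11.3% called lower. Tricarboxylic acid cycle enzymes had 12 of 13 point estimates below 0 and a median of -0.14. Only Suclg2 passed (7.69%), with a rise of 0.23. Of 15 electron and metabolite carriers, 3 fell and 1 rose. Cytochrome c (Cycs) had 2260, 2553 and 2269 normalised reads in WT and 1687, 1743 and 1724 in Runx1 KO. Cycs fell by 0.46 on the log2 scale (SE 0.07, adjusted p = 0.00583). Slc25a5 also fell (-0.23, adjusted p = 0.0366). The coenzyme Q synthesis genes Coq7 (-0.40, adjusted p = 0.0178) and Coq8a (0.59, adjusted p = 0.0169) moved in opposite directions. Import, pore and chaperone genes had 1 of 13 higher and 1 lower (7.69% each), with a median of -0.14.

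Glycolytic genes were mostly lower as well. Of 20 glycolytic genes 10 fell, beside 11.3% of all genes, and 2 rose, near the 10.6% of all genes, with a median log2 change of -0.28 and a summed ratio of 0.839. Gapdh fell by 0.50 (adjusted p = 0.00471) and the hexokinase Hk2 by 0.50 (adjusted p = 0.00838), while Hk1 rose by 0.45 (adjusted p = 0.012) and the phosphofructokinase Pfkm by 0.51 (adjusted p = 0.0223). Gapdh had 2810 to 3217 normalised reads in WT and 2118 to 2226 in Runx1 KO, and Hk1 had 9991 to 11541 and 13247 to 15480, so neither overlapped. The falls called numbered 6 without Runx1 KO 2 or Runx1 KO 3, and the rises 0 without Runx1 KO 2 and 1 without Runx1 KO 3, WT 1 or WT 3.

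**Figure D4:**
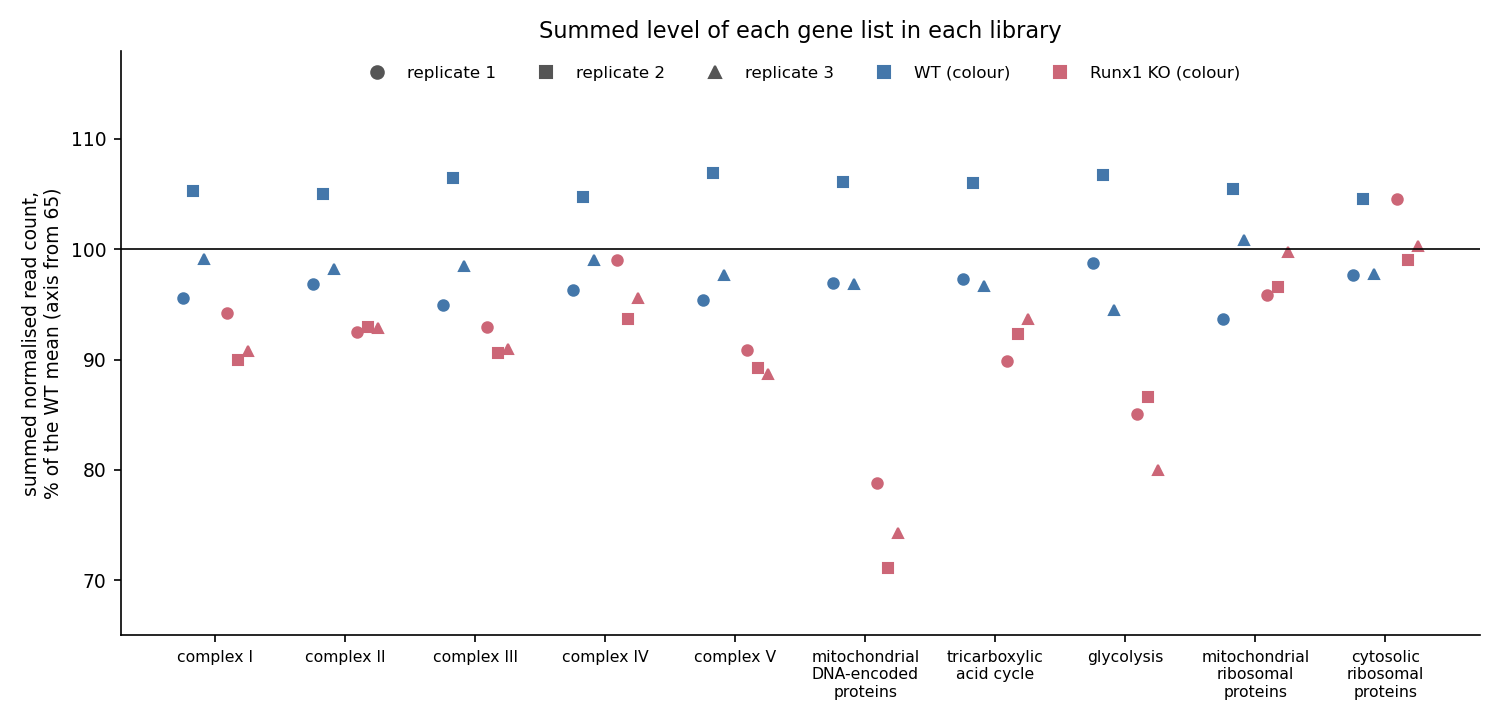
Summed normalised reads of 10 gene lists (the 5 complexes, mitochondrial DNA-encoded proteins, tricarboxylic acid cycle, glycolysis, and mitochondrial and cytosolic ribosomal proteins) in each library, as a percentage of the WT mean (axis from 65), with replicates by shape and groups by colour. WT 2 (blue square) is the highest WT library for all 10, the Runx1 KO libraries lie below all WT libraries for complexes I, II, III and V, and mitochondrial DNA-encoded genes are the lowest of the lists.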

How the data were processed

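Per the submitters' processing notes, reads were handled with HISAT2 and HTSeq 0.9.1 and the builds mm10 and GRCm38. The parameters, annotation and strand setting are not given in the sources used here. The deposited values, 1 number per Ensembl gene and library, carry unit signal: counts divided by 1 number per library, since every value was a whole multiple of 1 step within 0.001. Which tool the authors used to scale them is not given in the sources used here. The recovered size factors were 0.956 to 1.04. In every library the factor equalled, as rounded, the DESeq2 median-of-ratios factor computed from the recovered reads. Symbols came from the reference table for 20077 of 20097 IDs, and coordinates from GENCODE M21 on GRCm38.

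Genes passing filterByExpr (minimum count 10, minimum total 15), 15410 in all, were tested with limma 3.58.1 (trend, group only) on log2(value + 1), two-sided, with Benjamini-Hochberg adjustment over all of them at 0.05. Fold changes are on that scale. RPKM used recovered reads and the length of the principal transcript. Other fits used edgeR 4.0.16, DESeq2 1.42.0, voom, other scalings, pseudocounts of 0.5 and 5, other filters, a GC and length trend, a replicate block and each library left out. The main fit and edgeR with TMM scaling were also run on simulated counts with the same dispersion for every gene. That run does not assess the spread between these libraries. Named genes included the complex IV forms, subunit c genes, up to 4 rising and 4 falling members per complex past the threshold, all of complex II, and up to 2 each way in other lists. The members and lists were chosen with earlier results of these data known.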

Additional observations from a re-analysis of the deposited data

How the results depend on the processing

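The scale and single libraries set the counts of calls. Members called higher numbered 2 (2.47%, beside 10.6% of all genes), and 3 with limma on library totals (3.70%, beside 15.5%). They numbered 1 (1.23%, beside 7.74% to 10.7%) in 5 fits. These were the GC and length trend removed, edgeR on DESeq2 size factors, no filter, and the replicate block alone or with the trend. Members called lower numbered 9, and 18 with DESeq2, 17 with the trend removed, 14 with block and trend, and 2 with library totals in edgeR or limma. Complex I lost its rise (0) in the 5 fits with 1 member higher, had 2 rises with limma on library totals, and had 0 falls with either library-total fit. Complex III had 3 falls with DESeq2, the trend removed, or block and trend, and 2 with a mean CPM of at least 1 or pseudocount 5. Complex IV had 4 falls with DESeq2 or the trend removed, and 1 with library totals, limma on TMM scaling, voom, no filter or the block. Complex V had 5 with DESeq2 or the trend removed, 4 with block and trend, and 0 with library totals. The members median log2 change was -0.0659 with edgeR and -0.0629 with limma on library totals. Point estimates turned sign for Cox4i2 without WT 2 (-0.0175, and up to 0.4763 without another library), Cox6a1 with limma on library totals (0.0001), Atp5g2 with library totals (0.0581 in edgeR, 0.0594 in limma) and without Runx1 KO 2 (0.0011) or WT 2 (0.0001, and down to -0.0597 without another library), and Sdhb (0.0146 and 0.0152) and Sdhc (0.0144 and 0.0156) with library totals. None of these genes passed the threshold in the main test. The causes were not tested. Leaving out each library in turn gave 0 to 2 members higher (0 to 2.47%, beside 4.07% to 10.6% of all genes). It gave 1 to 14 lower (1.23% to 17.3%, beside 4.69% to 12.5%). By list there were 0 to 1 rises and 0 to 6 falls in complex I, 0 to 3 falls in complex III, 0 to 1 rises and 1 to 3 falls in complex IV, 0 to 4 falls in complex V, 5 to 10 falls of mitochondrial DNA-encoded genes, and 0 to 2 rises and 6 to 9 falls in glycolysis. In total 1 member was called without Runx1 KO 2 (8.75% of all genes called), 2 without Runx1 KO 3 (11.3%) and 3 without WT 2 (13.9%). Another 3 fits called 6 without WT 3 (15.1%), 13 without WT 1 (16.2%) and 15 without Runx1 KO 1 (23.0%). The replicate numbers gave correlations of deviations of 0.287, 0.1289 and -0.0104 for numbers 1, 2 and 3. Not every library correlated best with its own number, and whether equal numbers stand for a pairing was not tested. The replicate block called 11 members, with 24.9% of all genes called. The size that could be called differed with each gene's standard error, and with 3 libraries per group no limit of detection was computed.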
